A study of Mus musculus with 4 samples.

Results

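The genes described here encode the transcription factors Prox1, Sox18, Nr2f2 and Tbx1. They act in the lymphatic fate of endothelial cells or in the growth of lymphatic vessels. They were taken by name, and all 4 were among the 9114 genes of the deposited table. The 4 RNA sequencing libraries came from lymphatic endothelial cells of the brain meninges of C57BL/6J mice, all male and aged 20 to 24 months. Every animal had been given 5 µL of an AAV1 vector (an adeno-associated virus) into the cisterna magna, 4 weeks before the cells were taken. In the mVEGF-C group the vector carried the mouse lymphatic growth factor VEGF-C and in the control group the fluorescent protein eGFP. Both transgenes stood behind the CMV promoter, which is not restricted to one cell type. There were 2 libraries per group, each from a pool of 10 mice, so the spread between libraries is one between pools and not between animals. Cells had been gated as DAPI-negative, CD45-negative, CD31-positive and podoplanin-positive singlets. Of the genes that define the gate, Pecam1 (CD31) had 13962 to 23932 and Pdpn (podoplanin) 3053 to 4144 normalised counts per library. A normalised count is the number of reads on a gene divided by a size factor of the library.

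Lymphatic endothelium arises in the embryo from veins. Sox18, a factor of the SOX family with an HMG-box DNA-binding domain, and Nr2f2 (COUP-TFII), an orphan nuclear receptor that also keeps vein identity by restraining Notch signalling, switch on Prox1 in a subset of venous cells. Prox1, a prospero-type homeodomain factor, then drives the lymphatic programme. It is needed throughout life to keep it, and it acts in a loop with the VEGF-C receptor Flt4 (VEGFR3), in which each maintains the other. Tbx1, a T-box factor, is required for the growth of lymphatic vessels in the mouse and regulates Flt4. Meningeal lymphatic vessels are known to depend on VEGF-C and Flt4 in the adult. The comparison asked whether VEGF-C delivery was accompanied by other levels of these factors in lymphatic cells of old mice.

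None of the 4 genes differed between the groups beyond the spread of the libraries. The groups overlapped for every one of them. Prox1 had the highest level and the smallest range over the 4 libraries, Sox18 was nearly equal in 3 libraries and higher in the fourth, and Nr2f2 and Tbx1 varied more inside the eGFP group than between the groups. A gene counted as called when its p, adjusted by Benjamini and Hochberg's method over all genes, was under 0.05. In the limma fit 0 of the 4 genes were called, and 0 of the 4 had an unadjusted p under 0.05. Over all 9063 genes tested the fit called 2.14%, and the groups did not overlap for 39.2%. edgeR and DESeq2, run on the recovered reads, called 0 of the 4 too.

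Prox1 (ENSMUSG00000010175, mm10, chromosome 1, 190118035 to 190170714, minus strand) had 39586 and 34631 normalised counts in eGFP 1 and eGFP 2, and 47743 and 37805 in mVEGF-C 1 and mVEGF-C 2. The highest value was in mVEGF-C 1, and mVEGF-C 2 lay between the eGFP libraries. The means were 37108 ± 3504 in eGFP and 42774 ± 7027 in mVEGF-C libraries (SD, n = 2 each). The log2 difference of mVEGF-C minus eGFP was 0.20 ± 0.29 (SE), at an adjusted p of 0.896 in limma. Its 95% interval ran from a fold of 0.778 to one of 1.69. When the interval was taken from the gene's own spread in place of the variance that limma shares between genes, it ran from -0.64 to 1.03 on the log2 scale. Leaving out mVEGF-C 1 reduced the difference to 0.03, and leaving out mVEGF-C 2 raised it to 0.37. Given the fitted variance, a log2 difference of at least 0.94, a fold of 1.91, would have been needed for a call.

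Sox18 (ENSMUSG00000046470, chromosome 2, 181669836 to 181671640, minus strand) had 4320.5 and 4382 normalised counts in eGFP 1 and eGFP 2, and 6732 and 4341 in mVEGF-C 1 and mVEGF-C 2. Both eGFP libraries and mVEGF-C 2 were thus nearly level, and mVEGF-C 1 was higher. The means were 4351 ± 43.2 in eGFP and 5536 ± 1691 in mVEGF-C libraries (SD, n = 2 each). The log2 difference was 0.31 ± 0.72 (SE), its interval was -1.09 to 1.72, and limma gave an adjusted p of 0.943. With the gene's own spread the interval was -1.05 to 1.68. Without mVEGF-C 1 the difference was -0.0034, and without mVEGF-C 2 it was 0.63. A log2 difference of 2.34 would have been needed for a call.

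Nr2f2 (ENSMUSG00000030551, chromosome 7, 70351944 to 70366735, minus strand) had 2689 and 5973 normalised counts in eGFP 1 and eGFP 2, and 4409 and 3386 in mVEGF-C 1 and mVEGF-C 2. The eGFP libraries were the lowest and the highest of the 4, with both mVEGF-C libraries between them. The means were 4331 ± 2322 and 3897 ± 724 in eGFP and mVEGF-C libraries (SD, n = 2 each). The log2 difference was -0.05 ± 0.77 (SE), its interval was -1.56 to 1.45, and limma gave an adjusted p of 0.996. With the gene's own spread the interval was -2.66 to 2.56. The sign was set by single libraries: the difference was -0.63 without eGFP 1, 0.52 without eGFP 2 and 0.14 without mVEGF-C 2. A log2 difference of 2.51 would have been needed for a call.

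Tbx1 (ENSMUSG00000009097, chromosome 16, 18580979 to 18590671, minus strand) had 833 and 4821 normalised counts in eGFP 1 and eGFP 2, and 3461 and 1252 in mVEGF-C 1 and mVEGF-C 2. As for Nr2f2, both mVEGF-C libraries lay between the eGFP libraries, and the highest library had 5.79 times the level of the lowest. The means were 2827 ± 2820.1 and 2357 ± 1562 in eGFP and mVEGF-C libraries (SD, n = 2 each). The log2 difference was 0.06 ± 0.92 (SE), its interval was -1.76 to 1.87, and limma gave an adjusted p of 0.997. With the gene's own spread the interval was -6.24 to 6.35, so these libraries bound a difference in Tbx1 only loosely. The difference was -1.21 without eGFP 1, 1.32 without eGFP 2, -0.68 without mVEGF-C 1 and 0.79 without mVEGF-C 2. In means of normalised counts Tbx1 was lower in mVEGF-C than in eGFP libraries, whereas the mean of the log2 values was slightly higher. The sign also turned in edgeR (-0.25) and DESeq2 (-0.26). For a call in limma a log2 difference of 3.02 would have been needed.

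**Figure D1:**
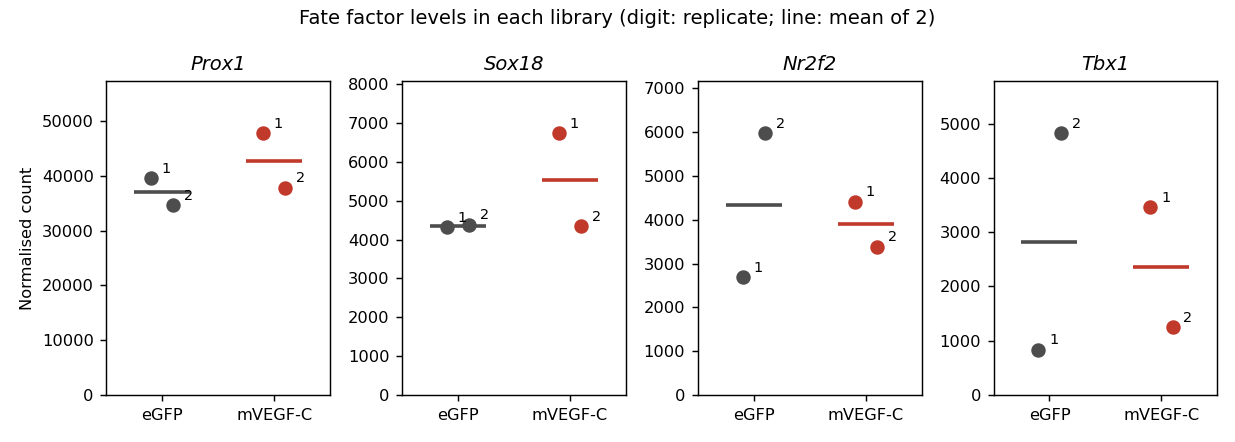
Normalised count of each fate factor (vertical axes from 0, 1 panel per gene) in the eGFP and mVEGF-C libraries, with the replicate number beside each point and the mean of 2 libraries as a line. The groups overlap in every panel; Tbx1 runs from 833 to 4821 within the eGFP group alone.

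**Figure D2:**
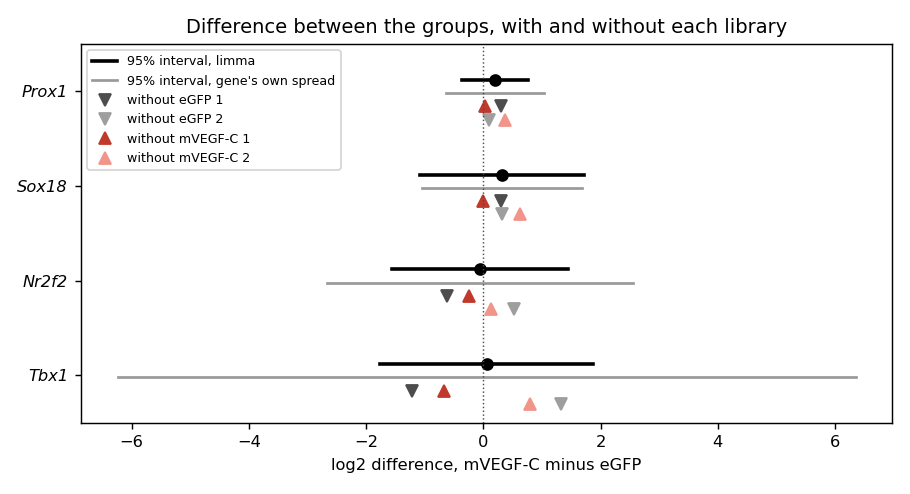
The log2 difference of mVEGF-C minus eGFP for each gene (black point) with the limma 95% interval (black), the interval from the gene's own spread (grey) and, as triangles, the difference with 1 library left out. The interval includes 0 for all 4 genes, and for Tbx1 the triangles run from -1.21 to 1.32.

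The agreement of the libraries inside a group differed widely among the 4 genes. In the eGFP pair the gap between the libraries, on the log2 scale, was 0.02 for Sox18, 0.19 for Prox1, 1.15 for Nr2f2 and 2.53 for Tbx1, beside a median of 0.94 over the genes tested. The Tbx1 gap was larger than that of 96.0% of the genes tested, and the Sox18 gap larger than that of 1.32%. In the mVEGF-C pair the gaps were 0.34 for Prox1, 0.38 for Nr2f2, 0.63 for Sox18 and 1.47 for Tbx1, beside a median of 1.07. The largest gap of any gene tested was 3.08 in the eGFP pair and 4.44 in the mVEGF-C pair.

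To compare levels between genes, normalised counts were divided by the length of the gene's exons, merged over its annotated transcripts. On this scale of normalised counts per kilobase, Prox1 stood at 4718, 4128, 5690.4 and 4506 in eGFP 1, eGFP 2, mVEGF-C 1 and mVEGF-C 2. Sox18 stood at 2667, 2705, 4156 and 2679 per kilobase in the same order. Sox18 encodes a short message with 1620 bases of exon, against 8390 for Prox1, so the distance between these genes shrank from the counts to the level per length. Prox1 remained above Sox18 in every library, by 1.77, 1.53, 1.37 and 1.68 times. Both were among the most abundant messages of the deposited genes: of 9005 genes with a length, Prox1 ranked 60 to 111 and Sox18 132 to 213 in the single libraries.

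Tbx1 and Nr2f2 were lower. Tbx1 had 237, 1371, 984 and 356 normalised counts per kilobase in eGFP 1, eGFP 2, mVEGF-C 1 and mVEGF-C 2, and ranked between 608 and 3611. Nr2f2 had 312, 693, 511 and 393, and ranked between 1490 and 2894. Sox18 lay above both in every library. Tbx1 was above Nr2f2 in eGFP 2 and mVEGF-C 1 and below it in the other 2 libraries, so these neighbours in the order did not differ beyond their spread. The level of Nr2f2 depends on the length chosen, because its merged exons (8625 bases over 6 transcripts, retained introns included) are far longer than its longest transcript of 4222 bases. Divided by the longest transcript, Nr2f2 had a mean of 974 per kilobase in place of 477, and Tbx1 1032 in place of 737. The RNA had been amplified linearly and the coverage along the transcripts is unknown, so levels per length are approximate.

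**Figure D3:**
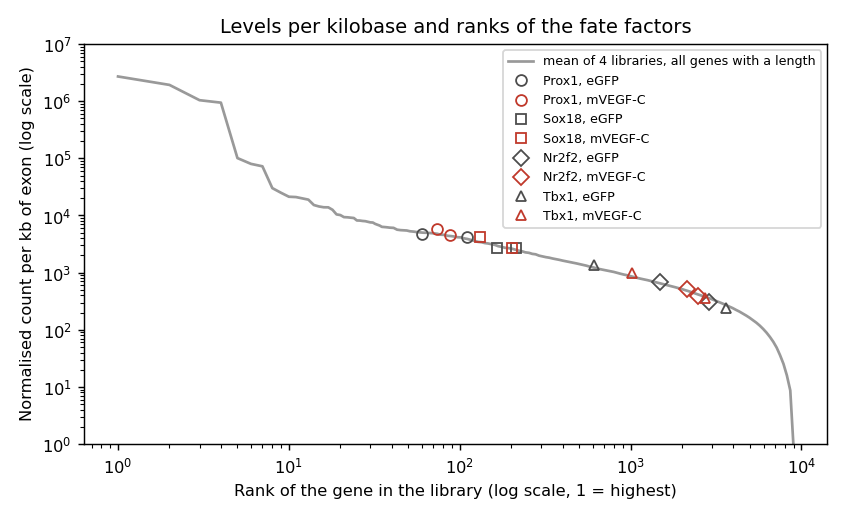
Normalised count per kilobase of exon against the rank of the gene, both on log scales, for each fate factor in each of the 4 libraries (symbols by gene, grey for eGFP and red for mVEGF-C), with the mean of all genes that have a length as a line. Prox1 and Sox18 sit at ranks 60 to 213 in every library, whereas Nr2f2 and Tbx1 range from 608 to 3611.

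Reads of related or overlapping genes could be counted to these genes only to a limited degree, as far as sequence shows it. None of the 31-base stretches of the Sox18 and Tbx1 transcripts occurs in the annotated transcripts of another gene (0 of 1590 and 0 of 3561, GENCODE vM21, either strand). For Prox1 1.23% of such stretches are shared, all of them with the antisense gene Prox1os and 2 also with Gm11525. For Nr2f2 8.12% are shared, most of them (7.17%) with B130024G19Rik on the opposite strand 0.456% with its paralog Nr2f1 and at most 0.187%, for Cytip, with any other gene. The strand setting of the counting is not given in the sources used here, so reads of Prox1 and Nr2f2 cannot be told apart from those of their opposite-strand neighbours in the shared parts. Prox1os and B130024G19Rik were not analysed here. The longest exact runs that the coding sequences share with the closest paralogs are printed to show how close the paralogs come in sequence. The Nr2f run, of 59 bases, lies in the part that encodes the zinc-finger DNA-binding domain, and is long enough to hold 31-base stretches that fit both genes. The Sox run, of 29 bases, is not.

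Nr2f2 and Nr2f1: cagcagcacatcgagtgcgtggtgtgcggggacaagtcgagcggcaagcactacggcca
Sox18 and Sox17: gagaagcggcccttcgtggaagaggccga

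Nr2f1 itself was low, with 95.8 and 278 normalised counts in eGFP 1 and eGFP 2 and 22.4 and 260.1 in mVEGF-C 1 and mVEGF-C 2, against at least 2689 for Nr2f2 in each library. Nr2f6, the third member of that receptor family, had 187 to 576. Of the 12 paralogs in the list 6 had a row; Sox7, Sox17 and Prox2 were among those not analysed here. None of the 6 was called. Tbx18 was higher in both mVEGF-C libraries, at 405 and 1402, than in the eGFP libraries, at 97.6 and 103, with a log2 difference of 2.90 and an SE of 1.23 (limma, adjusted p = 0.256). Tbx15 had 390.4 and 1769 in eGFP and 4239 and 595 in mVEGF-C libraries, with overlapping groups. The median log2 difference of the 6 paralogs was 0.60, beside -0.02 over all genes tested.

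Across the libraries Prox1 and Sox18 were highest in mVEGF-C 1, with the other 3 libraries closer to each other. Nr2f2 and Tbx1 had the same order, eGFP 2 above mVEGF-C 1, then mVEGF-C 2, then eGFP 1. That order was shared by 310 of the 9063 genes (3.42%), and with 4 libraries it is a description only. The likeness of profiles was measured as the Euclidean distance between log2 values centred on each gene's mean, over 4 libraries and 4137 genes with a mean of at least 1000. The distance was 0.282 between Prox1 and Sox18, which made Sox18 the neighbour number 61 of Prox1, beside a median of 1.37. Nr2f2 lay nearer to Sox18 (0.897) and Prox1 (0.984) than to Tbx1 (1.25). Seen from Tbx1, Nr2f2 was the nearest of the other members (1.25, against 1.89 for Sox18 and 2.09 for Prox1), beside a median of 2.39. The distance is not scaled for the width of a gene's range, so a wide range alone sets a gene apart. The range of Tbx1 over the libraries was the wider one, at 5.79 times against 2.22 times for Nr2f2.

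The genes nearest to Prox1 were Appl2 (distance 0.0666), which encodes an endosomal adaptor protein, the ETS-family repressor Elk3 (0.106) and Ccdc47 (0.106), a protein of the endoplasmic reticulum. Elk3 had 16450.1 and 14492 normalised counts in the eGFP and 21420.1 and 15386 in the mVEGF-C libraries, the same order of libraries as Prox1. Nearest to Sox18 were Ecpas (0.0474), a proteasome adaptor, D10Wsu102e (0.0898) and the zinc-finger gene Bnc2 (0.0929). Nearest to Nr2f2 were the chromatin remodeller Smarca5 (0.0983), the collagen-binding integrin Itga1 (0.124) and the exocyst subunit Exoc6 (0.128). Nearest to Tbx1 were Ino80e (0.045), a subunit of a chromatin-remodelling complex, the ribosome-associated ubiquitin ligase Ltn1 (0.198) and the adhesion receptor Adgre5 (0.31). None of these 12 genes was called between the groups.

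Because Nr2f2 and Tbx1 shared their order of libraries, the stretches around their start sites are shown, from 250 bases before to 50 after each start in RefSeq (GRCm38.p6, the build mm10). Capitals mark matches, on either strand, to core motifs of the members' own families: ACAAT for SOX factors, AGGTCA for nuclear receptors such as Nr2f2, and AGGTGT for T-box factors. Of 32851 windows of this length, 10192 hold the SOX motif, 5340 (16.3%) the receptor motif and 4514 (13.7%) the T-box motif. The 3 motifs were searched on both strands and do not overlap in the windows printed.

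Nr2f2 chr7:70366697-70366996, minus strand: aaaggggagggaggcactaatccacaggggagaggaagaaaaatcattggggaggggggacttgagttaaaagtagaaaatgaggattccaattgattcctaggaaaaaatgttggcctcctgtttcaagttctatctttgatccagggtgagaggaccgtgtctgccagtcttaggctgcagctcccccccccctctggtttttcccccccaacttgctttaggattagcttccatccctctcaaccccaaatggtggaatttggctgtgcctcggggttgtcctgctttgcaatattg
Tbx1 chr16:18588850-18589149, minus strand: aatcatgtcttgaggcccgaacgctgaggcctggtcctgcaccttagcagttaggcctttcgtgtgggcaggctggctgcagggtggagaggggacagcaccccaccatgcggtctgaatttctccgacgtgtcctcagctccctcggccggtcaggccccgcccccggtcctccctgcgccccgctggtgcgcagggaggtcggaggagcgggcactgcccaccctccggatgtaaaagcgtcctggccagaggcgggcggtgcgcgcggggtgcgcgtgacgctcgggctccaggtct
Tbx1 chr16:18590622-18590921, minus strand: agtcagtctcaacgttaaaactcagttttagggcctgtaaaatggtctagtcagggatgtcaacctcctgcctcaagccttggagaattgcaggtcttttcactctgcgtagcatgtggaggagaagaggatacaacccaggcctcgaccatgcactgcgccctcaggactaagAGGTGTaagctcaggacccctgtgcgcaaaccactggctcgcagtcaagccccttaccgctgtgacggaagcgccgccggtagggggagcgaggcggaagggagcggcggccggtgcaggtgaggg

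One of these 3 windows, the one at the upstream start of Tbx1, holds a match, to the T-box motif. The 2 windows of Prox1 hold no match to any of the 3 motifs. None of the 3 windows holds the start of the gene's principal transcript in GENCODE, which lies 6153 bases from the start used for Nr2f2, and 1930 and 3702 bases from the starts used for Tbx1. The match is in the window at 3702 bases. A match is a description of letters and not of a bound site. For Sox18 no window was used here.

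The libraries also differed in markers of other cells. Summed over the 12 of 18 blood endothelial markers that had a row, the level was 25917 and 55487 in eGFP 1 and eGFP 2 and 33412 and 37955 in mVEGF-C 1 and mVEGF-C 2. The sum was lowest in eGFP 1 and highest in eGFP 2, as were Nr2f2 and Tbx1, and no member was at 0. The VEGF receptor Flt1, named after its values were seen, had 30058 normalised counts in eGFP 2, against 4294 to 9446 in the other 3. Without Flt1, a choice made after seeing the data, the sum was 20639 in eGFP 1 and 25429 in eGFP 2. It was 23966 and 33661 in mVEGF-C 1 and mVEGF-C 2. The sum was then highest in mVEGF-C 2, where Nr2f2 and Tbx1 were not highest, and still lowest in eGFP 1, where both were lowest. Of the 12 genes 5 were highest in eGFP 2 and 2 were lowest in eGFP 1. Meningeal fibroblast markers (10 of 18 with a row, none at 0) summed to 119240 and 57625 in the eGFP and 123427 and 82273 in the mVEGF-C libraries, lowest where Nr2f2 and Tbx1 were highest. The fibroblast sum was highest in mVEGF-C 1, where Nr2f2 and Tbx1 were not lowest, so the orders were not opposite. Of the 10 genes 7 were lowest in eGFP 2, among them Col1a1 at 3011. Dcn and Pdgfra were lowest in mVEGF-C 2, at 9307 and 277, and Foxc1 was highest in eGFP 2, at 4060 normalised counts. Mural markers (4 of 10 with a row) summed to 25888 and 22013 in the eGFP and 14532 and 11183 in the mVEGF-C libraries, and dissociation response genes (7 of 10) to 18396 and 30362 and to 30106 and 24302. The part of these cells in the levels of the 4 genes was not tested. In sorted pools such as these, fewer cells of a type and less RNA per cell cannot be told apart. Of 11 macrophage markers only Mrc1, which lymphatic endothelium also expresses, had a row. Of 9 lymphocyte markers 2 had one, Cd3d at 318 to 850 and another that was at 0 in a library.

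The 4 genes were also set against the summed pan-endothelial markers of each library. This sum is a level of RNA and not a count of endothelial cells. It holds Robo4 and Erg, which are also on the lists of reported targets and of partner genes. Prox1 amounted to 32.0% and 21.7% of the summed level of 11 pan-endothelial markers in eGFP 1 and eGFP 2, and to 28.0% and 25.6% in mVEGF-C 1 and mVEGF-C 2. The highest value was now that of eGFP 1, and the mVEGF-C values lay inside the eGFP range. Sox18 amounted to 3.50% and 2.75% in eGFP and 3.95% and 2.94% in mVEGF-C libraries, Nr2f2 to 2.18% and 3.75% against 2.59% and 2.29%, and Tbx1 to 0.674% and 3.02% against 2.03% and 0.847%. The groups overlapped for each gene on this scale too, on which the log2 difference was 0.02 for Prox1, 0.14 for Sox18, -0.23 for Nr2f2 and, with its sign turned, -0.12 for Tbx1. This rescaling moved the median over all genes tested from -0.02 to -0.19.

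**Figure D4:**
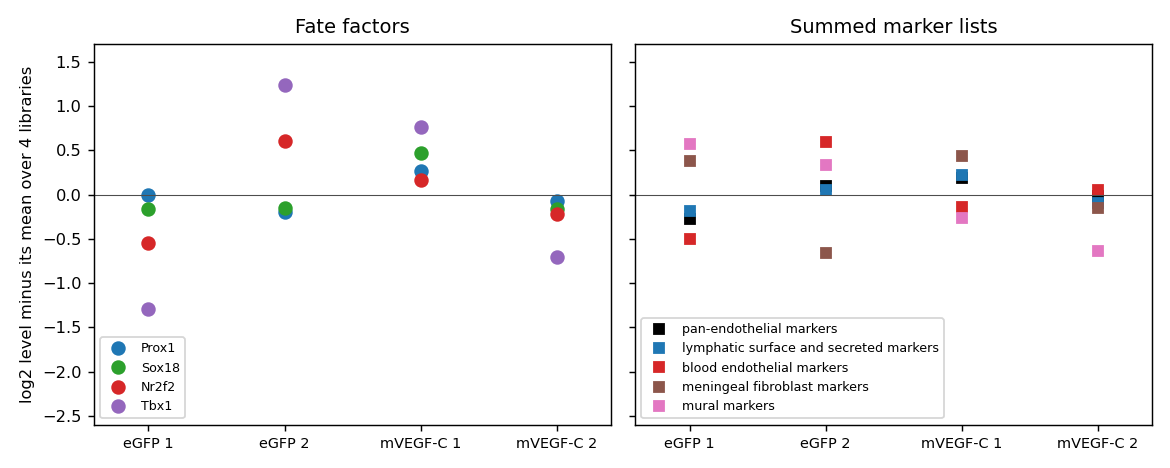
Log2 level of each fate factor (left) and of the summed marker lists (right) in each library, minus its mean over the 4 libraries. Tbx1 and Nr2f2 are highest in eGFP 2 and lowest in eGFP 1, as is the blood endothelial sum (55487 and 25917). Without Flt1 that sum is highest in mVEGF-C 2 (33661) and still lowest in eGFP 1 (20639). The fibroblast sum is lowest in eGFP 2 (57625) and highest in mVEGF-C 1 (123427).

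The genes that act around the 4 factors were described by role. Among inputs and antagonists of Prox1 induction, 15 of 21 genes were tested, of which 0 were called higher and 1 lower. The called share over all genes tested was 2.14% (194 of 9063). The median log2 difference of the list was -0.12, with 7 above 0, beside 4482 of 9063 above 0 over all genes. Fully separate groups were seen for 4 genes of this list, 2 higher and 2 lower, beside 39.2% over all genes. The called gene of the list was Hey1, a transcriptional repressor induced by Notch, which opposes Prox1. Hey1 had 182 and 357 normalised counts in the eGFP and 5.34 and 17.7 in the mVEGF-C libraries, a log2 difference of -4.56 ± 1.31 (SE) and an adjusted p of 0.0303 in limma. Both mVEGF-C libraries lay far below both eGFP libraries. The call was lost without eGFP 1 (adjusted p = 0.306 in limma), without eGFP 2 (0.995), without mVEGF-C 1 (0.169), with only genes of a mean of at least 100 (0.102), without the variance trend (0.0754), with the gene's own variance (0.802) and in edgeR (0.064). It held in DESeq2 (0.00028) and without mVEGF-C 2, where the log2 difference was -5.33. In limma the call also held with 0.1 or 5 added before the log2 in place of 1 (adjusted p of 0.0346 and 0.0259). It held without the filter on the mean (0.0295), with a robust variance fit (0.0267) and with the replicate block (0.024), all in limma. Under the other scalings of the libraries the adjusted p in limma was 0.0293 to 0.0425. Notch1, the receptor upstream, stood the other way. It had 11321 and 10354 in the eGFP and 17781 and 17338 in the mVEGF-C libraries, which did not overlap. Its log2 difference was 0.70 ± 0.48 (SE), at an adjusted p of 0.643 in limma. Notch3, a Notch receptor and mural marker, had 799 and 2179 in the eGFP and 489 and 79.0 in the mVEGF-C libraries. Its log2 difference was -2.74 (limma, adjusted p = 0.263), and all 4 mural markers with a row had differences below 0. Which cells the Hey1 reads came from was not tested.

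Of the other inputs, the VEGF-C receptor Flt4 had 50601 and 72373 in the eGFP and 65465 and 71949 in the mVEGF-C libraries, with overlapping groups (log2 difference 0.18). The kinases Map2k1, Map2k2 and Mapk3, which carry growth factor signals, had log2 differences of -0.12, 0.56 and -0.67 with overlapping groups. Of the Hippo pathway coactivators, which restrain Prox1, Wwtr1 (TAZ) was at 6387 and 3657 in the eGFP and 8227 and 7371 in the mVEGF-C libraries, at an adjusted p of 0.802 in limma, and Yap1 ranged from 858 to 5267 with overlapping groups. Hhex, a homeobox gene upstream of Prox1, had 862 and 2403 against 1413 and 1173. Bmp4 had 907 and 337 in the eGFP and 27.8 and 299 in the mVEGF-C libraries, so that mVEGF-C 2 stood just below eGFP 2. Its log2 difference was -2.575, at an adjusted p of 0.3765 in limma. Vegfc, the gene the vector carried, was not analysed here, nor were Gata2, Rbpj and Hey2.

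None of 13 partner and cofactor genes tested was called, and their median log2 difference was 0.27 with 8 above 0. Ets2, an ETS factor that cooperates with Prox1, had 7977 and 7910.2 in the eGFP and 4803 and 3831 in the mVEGF-C libraries, which did not overlap. Its log2 difference was -0.89 ± 0.67 (SE) and an adjusted p of 0.697 in limma. The related Ets1, Erg and Fli1 stood at 0.33, 0.59 and 0.61. The nuclear receptor corepressor Ncor1 stood at 0.27, and Chd4, a remodeller of the NuRD complex, at 0.30. Of the 13 genes 4 had groups that did not overlap, 2 in each direction. That share is close to the 39.2% over all genes.

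None of 12 other transcription factors of lymphatic vessels tested was called, with a median of 0.04 and 6 above 0. The highest per length was Elk3, at a mean of 3722 normalised counts per kilobase and rank 117. Nfatc1, a factor of lymphatic valves, had 6984 and 11420 normalised counts in the eGFP and 6144 and 7856 in the mVEGF-C libraries, with a log2 difference of -0.36. Foxc2, the forkhead factor of valves and collecting vessels, was low at 355 to 1137, with a difference of -0.13 and overlapping groups. Klf2, a gene induced by flow, had the highest difference, 0.70 (limma, adjusted p = 0.903).

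Of 21 reported targets of the 4 factors 15 were tested and 0 were called, 10 had differences above 0, and the median was 0.14. The groups did not overlap for 6, 5 of them higher in the mVEGF-C libraries: Itga9, Nrp2, Lyve1, Dll4 and Reln. Itga9, the valve integrin, had 7154 and 4677 in the eGFP and 18427 and 10795 in the mVEGF-C libraries, a log2 difference of 1.29 ± 0.57 (SE) and an adjusted p of 0.293 in limma. Dll4, a Notch ligand regulated by Tbx1, had 1385 and 1923 against 5169 and 1957, so that mVEGF-C 2 stood just above eGFP 2 (limma, adjusted p = 0.792). Vcam1, a Sox18 target and adhesion molecule for leukocytes, was the lower one, at 2420.4 and 4184 against 953 and 1402 (log2 difference -1.46, limma, adjusted p = 0.61). Foxc2 and Cldn5, targets of Prox1 and Sox18, had differences of -0.13 and 0.14. Targets of both directions were thus present, and the list stood apart from all genes neither by calls nor by its share of groups that did not overlap.

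**Figure D5:**
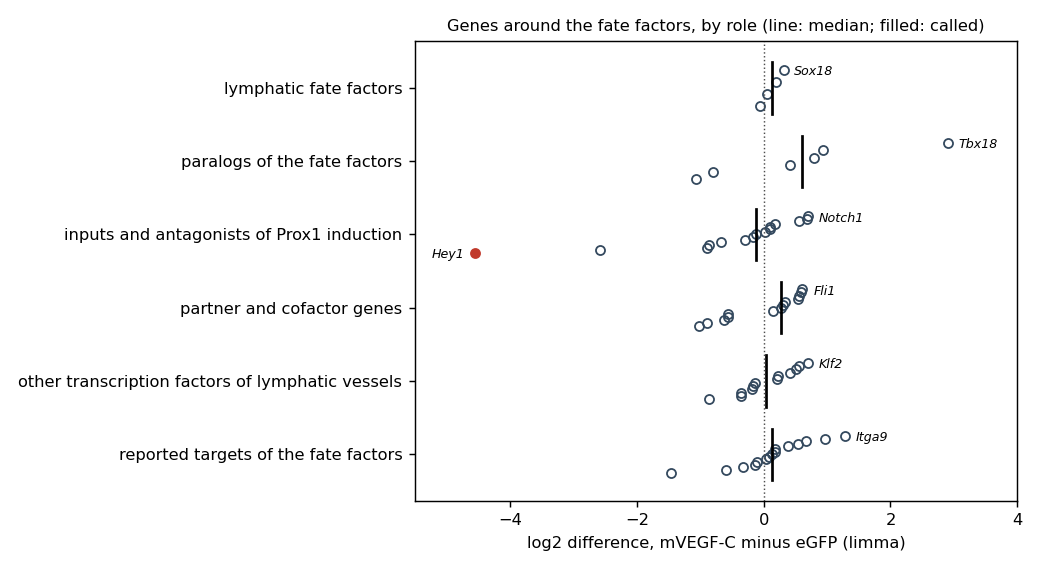
The log2 difference of mVEGF-C minus eGFP for each gene tested (points) of the fate factors and of 5 lists around them, with the median of the list as a line, the gene called by limma filled in red and the highest gene of each list and the called gene named. The 1 called gene is Hey1 at -4.56, and the list medians lie between -0.12 and 0.60.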

How the data were processed

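Gene expression was measured in 4 libraries, 2 per group. The deposited table holds a signal, normalised read counts (9114 genes). The submitters' processing notes name FastQC, Trimmomatic, Salmon, DESeq2 and the build mm10, without versions or roles. In each library all values came out as whole numbers of reads (100.0%, tolerance 0.001) once divided by the value of a single read. Reads on the 9114 deposited genes summed to 25610683 to 28632461 per library, and the full depth is not known. SDs are spreads between libraries. The SE of a log2 difference comes from the variance that limma fitted across genes. No gene in the table differs inside a group by more than 2.83 (eGFP) or 4.24 (mVEGF-C) in log2(reads + 1). Genes with wider spread were thus probably left out before deposit, and the spread and p-values are then too small. Gaps and ranks compared over all genes, and the share of groups that do not overlap, hold for the deposited genes only.

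Per gene, log2(normalised count + 1) was fitted in limma 3.58.1 (R 4.3.3; eBayes with a variance trend) for 9063 genes (mean of 10 or more), two-sided, with Benjamini-Hochberg adjustment over all of them. Differences on this scale understate the change of low genes. There were 2 residual degrees of freedom, and the variance came from the trend, so a gene's own spread did not enter its p-value. An interval from the gene's own spread is therefore given beside it. The exact two-sided permutation p of the group means was 0.667 to 1.0 for the 4 genes, where 0.333 is the smallest possible. Alternatives included edgeR 4.0.16 and DESeq2 1.42.0 on the recovered reads. The fits were tested on simulated data. Positions and lengths are from GENCODE vM21 (9005 rows, 98.8%). Of 1146 rows named by an identifier, 1098 were given a symbol. Genes named are the 4 members, the 3 nearest profiles of each, and genes of the role lists (highest level, smallest p, and others picked by role after their values were seen). A few list members are not reported here by name. The members and lists were chosen with earlier results of these data known.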

Additional observations from a re-analysis of the deposited data

How the results depend on the processing

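Across 19 alternatives for each gene, 0 of the 4 fate factors were called (adjusted p of 0.758 and above). Prox1 kept its direction in all 19, but several of them (pseudocounts, filters, variance settings, replicate block) cannot change the difference or barely can. The Prox1 difference fell to 0.02 when rescaled to the pan-endothelial markers and to 0.03 without mVEGF-C 1. Leaving out 1 library gave Sox18 -0.0034 to 0.63, Nr2f2 -0.63 to 0.52 and Tbx1 -1.21 to 1.32. The sign of Tbx1 also turned with libraries rescaled to 1 total (-0.028), to the upper quartile (-0.019) or to the pan-endothelial markers (-0.12), in edgeR (-0.25) and in DESeq2 (-0.26); the cause was not tested. The calls over all genes, 75 higher and 119 lower, were 45 and 75 with a mean of at least 100, 15 and 26 without a trend, 283 and 318 in DESeq2, 67 and 79 in edgeR, and 48 and 121 (28.4% higher, against 38.7%) when rescaled to the pan-endothelial markers. With each gene's own variance in limma there were 0 and 0 (286 and 262 at an unadjusted p under 0.05). Leaving out 1 library gave 5 to 104 higher and 0 to 188 lower genes, the lowest numbers without eGFP 2 (203 and 196 at an unadjusted p under 0.05). With the replicate block there were 74 and 129 calls, and Prox1 had an adjusted p of 0.917 in limma. The Prox1 difference of 0.20 could not change there, because the block was balanced over the groups. Same-numbered libraries did not deviate together (correlation 0.00013 over genes). With the longest transcript as length, Nr2f2 had 974 normalised counts per kilobase and rank 1272 in place of 2164, and Sox18 rank 218 in place of 159. Without division by length the ranks were 31 for Prox1 in place of 75, 955 for Sox18 and 1223 for Nr2f2.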
